A study of Mus musculus with 5 samples.

Results

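The genes described here are the transcription factors and cofactors that assemble around GATA1 and TAL1 in erythroid cells. The list of 10 was Gata1, Gata2, Zfpm1, Tal1, Lmo2, Ldb1, Gfi1b, Nfe2, Cbfa2t3 and Spi1. They were found by symbol among the 39179 genes of the count table, and all 10 were present and entered the test. RNA was sequenced from 5 libraries of TER119-positive cells, sorted from fetal livers of C57BL/6 embryos at 14.5 days after conception. The 3 control libraries carried Csnk2b+/+ with Vav+/Cre and the 2 KO libraries Csnk2b fl/fl with Vav+/Cre, so both groups held the same Cre transgene and no other treatment. Csnk2b encodes the non-catalytic beta chain of protein kinase CK2, and the Vav1 promoter drives Cre across blood-forming cells. The labels number the embryos and do not say whether a library came from 1 embryo or a pool, so p-values measure the spread between these libraries.

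GATA1 is the zinc finger factor that drives erythroid genes, and GATA2 occupies many of the same sites in earlier progenitors. In the course of red cell differentiation GATA1 replaces GATA2 at chromatin, a step known as the GATA switch, which also silences Gata2 itself. TAL1 binds E-box DNA as a dimer with an E protein and is joined to GATA1 through the adaptors LMO2 and LDB1. FOG1 (Zfpm1), ETO2 (Cbfa2t3) and GFI1B bring corepressors, NF-E2 p45 (Nfe2) acts at the globin loci, and PU.1 (Spi1) drives myeloid genes and opposes GATA1.

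Totals were 13187094 to 15366021 counts per library. Csnk2b was at 186, 186 and 169 CPM (counts per 1e+06, after TMM adjustment of library sizes) in the controls and at 112 and 95.6 CPM in the KO libraries, a log2 fold change of -0.80 ± 0.09 (SE, edgeR adjusted p = 0.0018). These counts cover the whole gene, so they can include reads from exons outside the deleted part. The KO libraries kept Csnk2b RNA at 0.574 of the control level, and the source of this remaining RNA was not tested. KO therefore names the genotype here and not a complete loss of Csnk2b RNA. The labelled cell type matched its markers, with Hbb-bs, a beta globin gene, at 15462 to 20197 CPM and Slc4a1, the band 3 anion exchanger, at 15773 to 19424 CPM. Markers of other cells were present too: Mpo, a granulocyte precursor enzyme, was at 383 to 548 CPM. Control replicate 3 stood apart in holding 1142 counts of 4 Y-linked genes, against at most 2 elsewhere, together with Xist at 547 CPM, against 788 to 1026 CPM elsewhere. Over genes, chi-square per degree of freedom was 17.7 between both KO libraries and 4.30 to 6.35 between controls.

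In KO erythroid cells, the RNA of the GATA1 and TAL1 complex genes was not detectably changed at this depth and number of libraries. Of the 10 genes, 0 were called higher and 0 lower by edgeR's quasi-likelihood test at an adjusted p below 0.05, in a table where 5.15% of the 13000 genes tested were higher and 1.83% lower, 6.98% in all. DESeq2 and limma-voom also called 0 of the 10. At an unadjusted p below 0.05, 1 of the 10 (Lmo2) was below the threshold, against 23.8% of all genes tested. The median log2 fold change of the 10 was -0.03, with 3 above and 7 below 0, beside a median of 0.01 over all genes tested. Leaving out control replicate 3 gave 0 calls among the 10 as well. The 95% intervals of the members' log2 fold changes differed by gene. They were -0.24 to 0.14 for Gata1, -0.20 to 0.20 for Tal1, -0.44 to -0.05 for Lmo2 and -0.10 to 0.81 for Gata2. Changes within a gene's own interval are not excluded by the data, and the interval of Lmo2 lies below 0 before adjustment.

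**Figure D1:**
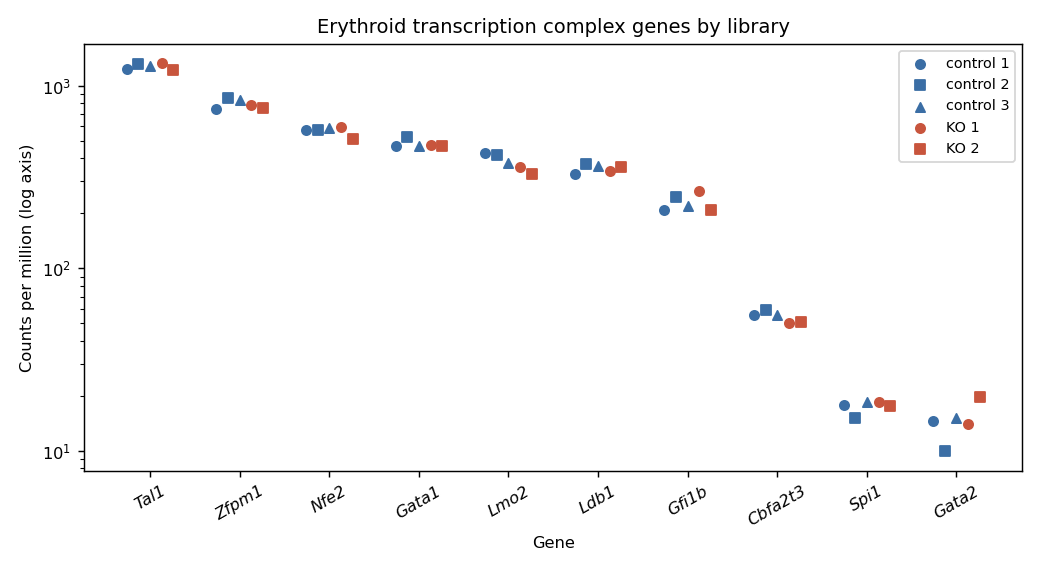
CPM of the 10 genes on a log axis, 1 point per library, with controls in blue, KO in red and the replicate number shown by the marker. Both groups lie together for each gene, from Tal1 at 1225 to 1326 CPM down to Gata2 at 9.91 to 19.8 CPM, and Lmo2 and Cbfa2t3 are the genes whose KO points lie below every control.

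**Figure D2:**
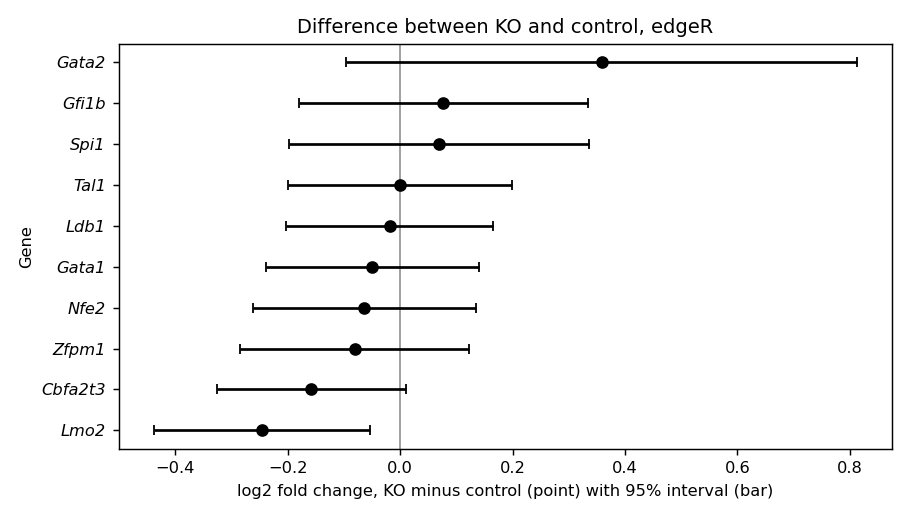
Log2 fold change of KO against control for each gene (point) with its 95% interval (bar) from the edgeR fit. The intervals of 9 genes cover 0, Lmo2 lies below 0 before adjustment, and Gata2 has the widest interval, from -0.10 to 0.81.

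The members differed far more from each other than between the genotypes. Per kilobase of annotated exon, Tal1 had the highest level in controls, at 291 CPM per kilobase ± 9.42 (SD, n = 3). Zfpm1 followed at 233 CPM per kilobase ± 16.8, and then came Gata1 at 199 ± 14.0, Nfe2 at 193 ± 2.90 and Lmo2 at 188 ± 12.1 CPM per kilobase (SD, n = 3). Each of Zfpm1, Gata1, Nfe2 and Lmo2 overlapped its neighbour in this order over the 3 controls, so their order is not fixed by these libraries. Gfi1b was at 123 CPM per kilobase ± 10.9 and Ldb1 at 77.1 CPM per kilobase ± 4.89 (SD, n = 3), each apart from its neighbours. The corepressor Cbfa2t3 and the myeloid factor Spi1 were far lower and overlapped, at 6.74 ± 0.24 and 6.37 ± 0.68 CPM per kilobase (SD, n = 3). Gata2 was the lowest, at 2.44 CPM per kilobase ± 0.53 (SD, n = 3). The order was the same in KO libraries except that Spi1, at 6.70 ± 0.29 CPM per kilobase, came before Cbfa2t3, at 6.04 ± 0.03 (SD, n = 2). The length is the union of all annotated exons.

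GATA factors and TAL1 are known to bind and regulate the genes of their own circuit, so the bases before the start sites of these genes were read for the letters they recognise. RefSeq promoter windows on GRCm38.p6 matched 7 of the 10 genes with 12 start sites. The GATA letters searched on both strands were AGATAA and the close form AGATAG, together with the forms TGATAA and likewise TGATAG. They lay in the 250 bases before 4 of these starts, in 4 genes: Tal1, Ldb1, Gfi1b and Cbfa2t3. Over all 32851 windows of this length 26.5% held them. E-box letters (CANNTG, which read alike on both strands) lay before 5 starts in 4 genes, Gata1, Ldb1, Gfi1b and Cbfa2t3, against 66.2% of all windows. Over the 12 starts, the GATA count was near the share of all windows and the E-box count below it. Neither count sets these genes apart from others. In the examples shown, GATA letters are in capitals, and TTATCT is AGATAA read on the other strand. The example windows are from 3 of the genes with GATA letters: TAL1 itself, its adaptor LDB1 and the corepressor GFI1B. They are chr4:115056176-115056425 on the plus strand for Tal1 (first start), chr19:46037071-46037320 on the minus strand for Ldb1 (the third start, inside the gene) and chr2:28621983-28622232 on the minus strand for Gfi1b.
Tal1: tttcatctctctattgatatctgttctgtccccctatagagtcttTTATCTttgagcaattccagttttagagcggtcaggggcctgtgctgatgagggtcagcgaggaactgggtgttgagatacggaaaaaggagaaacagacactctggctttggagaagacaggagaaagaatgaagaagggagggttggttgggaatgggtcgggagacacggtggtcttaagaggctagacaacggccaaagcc
Ldb1: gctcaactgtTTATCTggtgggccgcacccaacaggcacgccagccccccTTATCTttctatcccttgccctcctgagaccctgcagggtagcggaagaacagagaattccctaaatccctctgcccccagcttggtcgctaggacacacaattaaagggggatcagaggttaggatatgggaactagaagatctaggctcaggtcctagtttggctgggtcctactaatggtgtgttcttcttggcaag
Gfi1b: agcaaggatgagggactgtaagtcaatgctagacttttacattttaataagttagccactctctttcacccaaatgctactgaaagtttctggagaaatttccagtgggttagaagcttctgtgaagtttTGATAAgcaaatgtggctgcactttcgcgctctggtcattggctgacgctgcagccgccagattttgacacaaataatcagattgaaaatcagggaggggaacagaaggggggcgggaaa
Of all windows of this length 18.7% held both GATA and E-box letters. In Gfi1b the GATA letters begin 120 bases before the start and E-box letters (CAAATG) begin 180 and 113 bases before it. In Ldb1 E-box letters (CAACTG) begin 247 bases before the start and the first GATA letters 240 bases before it. The matches describe letters in these windows, with no measurement of binding, and the RNA of these 3 genes did not pass the test, with the values given below.

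Gata1 (ENSMUSG00000031162, minus strand of chromosome X from 7959260 to 7978071 in GRCm38, the assembly mm10 names) encodes the main erythroid GATA factor. The controls held 465, 525 and 468 CPM of it and the KO libraries 472 and 467 CPM. Both KO libraries fell inside the control range. The log2 fold change was -0.05 ± 0.08 (SE, edgeR adjusted p = 0.76), with a 95% interval for the fold of 0.847 to 1.10. Its cofactor Zfpm1, or FOG1, on chromosome 8 from 122282141 to 122337251, binds the GATA1 amino-terminal finger. It was at 751, 862 and 839 CPM in controls and at 785 and 760.0 CPM in KO, again inside the control range, with a log2 fold change of -0.08 ± 0.09 (SE, edgeR adjusted p = 0.63). Without control replicate 2, the highest control for both genes, the log2 fold change of Gata1 was 0.01 and that of Zfpm1 -0.04.

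Gata2 (ENSMUSG00000015053, plus strand of chromosome 6 from 88193891 to 88207032) encodes the progenitor GATA factor that GATA1 displaces. It stood at 14.5, 9.91 and 15.1 CPM in the controls and at 14.0 and 19.8 CPM in the KO libraries, from 130 to 305 counts per library. KO replicate 2 was the highest and control replicate 2 the lowest, while KO replicate 1 lay among the controls. The log2 fold change was 0.36 ± 0.20 (SE, edgeR adjusted p = 0.32), with a 95% interval for the fold of 0.936 to 1.76. The estimate followed single libraries, going to 0.08 when KO replicate 2 was left out, to 0.56 when KO replicate 1 was and to 0.19 when control replicate 2 was. None of these passed, with adjusted p from 0.075 to 0.91 over the alternatives run.

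The ratio of Gata1 to Gata2 counts compares both GATA factors within a library and so does not depend on library scaling. The controls gave 32.1, 53.0 and 30.9, in the order of their numbers, and KO replicate 1 gave 33.8 beside 23.6 in KO replicate 2. The groups overlapped, since KO replicate 1 lay above controls 1 and 3 and KO replicate 2 below every control. The mean was 38.7 ± 12.4 (SD, n = 3) in control and 28.7 ± 7.17 (SD, n = 2) in KO. On the log2 scale KO was lower by a difference of -0.41 (exact two-sided permutation p = 0.6, adjusted over 3 ratios 0.9). With 3 against 2 libraries the smallest p this test can give is 0.2, so it cannot pass a threshold of 0.05. Counting error alone gave 95% intervals (exact binomial) of 44.6 to 63.6 for control replicate 2 and 21.1 to 26.6 for KO replicate 2, both clear of the other libraries' values, so these libraries differed from the rest beyond counting error. The reads carry no molecular identifiers, so such intervals cover counting error only. Per kilobase of exon the ratio was 68.5 to 117 in controls and 74.7 and 52.3 in KO.

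**Figure D3:**
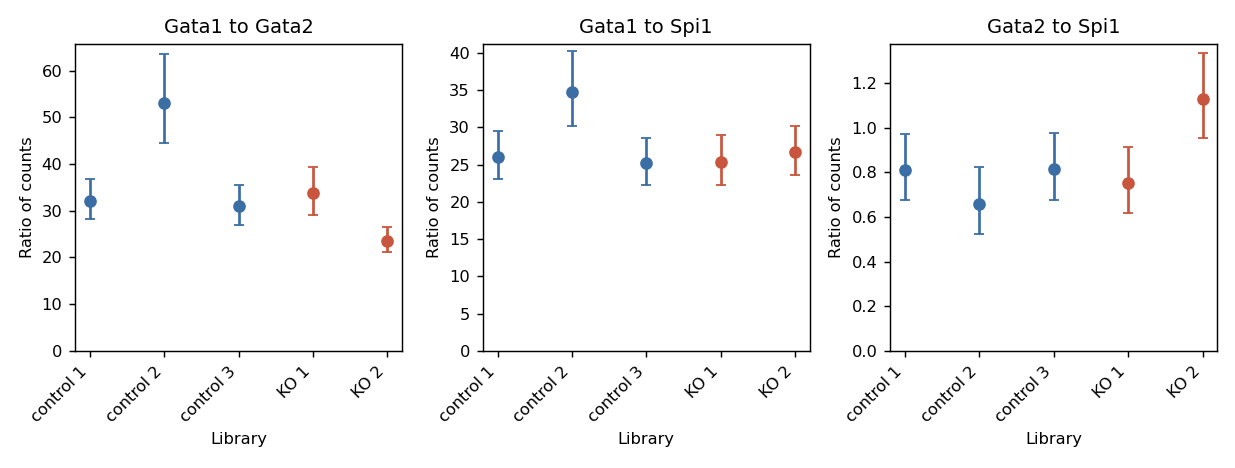
Ratio of counts within each library for Gata1 to Gata2, Gata1 to Spi1 and Gata2 to Spi1 (points), controls in blue and KO in red, with exact 95% binomial intervals (bars). Control replicate 2 has the highest Gata1 to Gata2 ratio at 53.0 and KO replicate 2 the lowest at 23.6, and the 3 remaining libraries lie from 30.9 to 33.8.

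Gata2 is also expressed outside the erythroid lineage, in stem cells, megakaryocyte precursors and mast cells, and the summed markers of such cells are given here beside it. The summed CPM of 10 stem and progenitor markers was 51.98 in control replicate 2 and 65.1 to 73.0 in the 4 other libraries. The summed CPM of 10 megakaryocyte markers was 191 in KO replicate 2 and 133 to 145 in the 4 other libraries. Itga2b, the CD41 integrin chain, was at 57.5 CPM in KO replicate 2 and 28.7 to 33.8 CPM in the rest, and Pf4, a platelet chemokine, at 20.9 CPM against 8.38 to 10.4 CPM. Some other megakaryocyte markers were lowest there: in KO replicate 2 Gp9 was at 10.0 CPM against 13.2 to 16.1 CPM in the rest, Ppbp at 4.47 against 4.61 to 8.17 CPM and Gp1ba at 4.41 against 4.61 to 5.92 CPM. Vwf was at 49.3 and 48.5 CPM in KO replicates 1 and 2 and at 40.1 to 43.5 CPM in controls. Pf4, Gp9, Ppbp and Gp1ba were chosen after their values were seen, while Vwf and Itga2b were named as the most abundant of the list. In both lists 0 of 8 tested genes passed in edgeR (3 megakaryocyte and 0 progenitor genes had an unadjusted p below 0.05), and DESeq2 called 1 megakaryocyte gene higher. The median log2 fold change of the megakaryocyte list was 0.22; it was -0.12 when KO replicate 2 was left out, and 0.38 when KO replicate 1 was, a fit that called 4 higher and 1 lower. Of 10 mast cell markers 4 were tested and 0 passed in edgeR (2 at an unadjusted p below 0.05). The sum of the 10 was lowest in control replicate 2, at 50.9 CPM, and highest in control replicate 3, at 66.0 CPM. Mcpt4, Fcer1a and Mrgprb1 were at 0 in every library. The part of other cells in the Gata2 values was not tested, and in bulk RNA fewer cells of a type and less RNA per cell cannot be told apart.

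**Figure D4:**
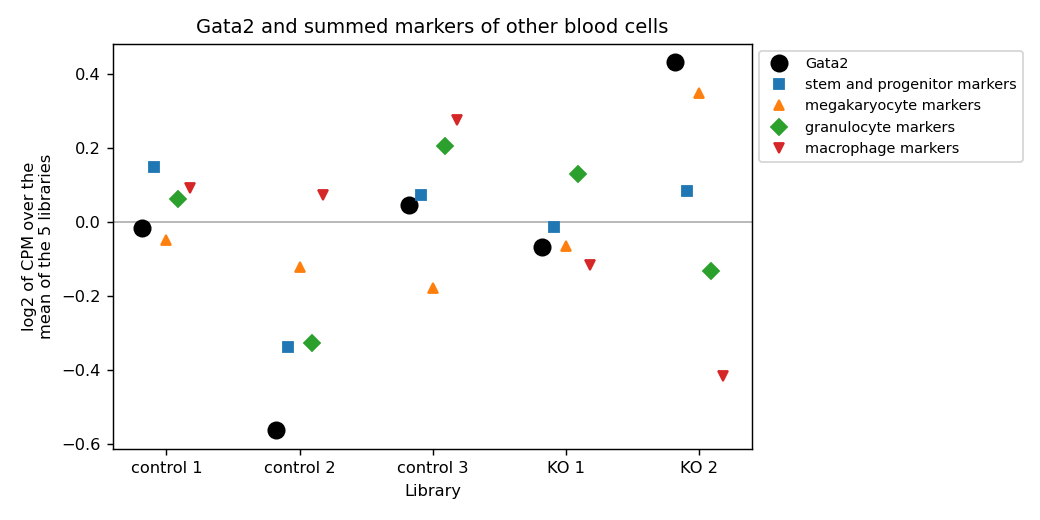
Log2 of CPM over the mean of the 5 libraries for Gata2 and for the summed markers of 4 other blood cell types, with points set side by side in each library. Gata2, the stem and progenitor sum and the granulocyte sum are all lowest in control replicate 2, at -0.56, -0.34 and -0.33. Gata2 and the megakaryocyte sum are both highest in KO replicate 2, at 0.43 and 0.35. The progenitor sum is at 0.08 there, below control replicate 1 at 0.15, and the granulocyte sum at -0.13.

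Genes whose pattern lay closest were found by the root mean square difference of centred log2 CPM over the 5 libraries, among 8115 genes with a mean of at least 10 CPM. For Gata2 they were Sox4, Igfbp4 and Acap1, at distances of 0.05, 0.09 and 0.09, and Sox4, a transcription factor of progenitor cells, was at 12.2, 7.93 and 11.8 CPM in controls and 10.7 and 15.0 CPM in KO. For Gata1 they included Eef2, the translation elongation factor, at 0.01 and Coq6, an enzyme of coenzyme Q synthesis, at 0.02. Eef2 was at 3730.3, 4282 and 3853 CPM in controls and at 3838 and 3807 CPM in KO. Like Gata1, Eef2 and Coq6 were highest in control replicate 2. Gata1 itself varied little, from 465 to 525 CPM, and how many other genes lie near it was not counted.

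Tal1 (ENSMUSG00000028717, plus strand of chromosome 4 from 115056426 to 115071755) encodes the basic helix-loop-helix factor of the complex. It was at 1232, 1314 and 1281 CPM in controls and at 1326 and 1225 CPM in KO, so the KO libraries enclosed the control range. Controls averaged 1276 CPM with an SD of 41.3 (n = 3) and KO libraries 1276 CPM with an SD of 71.8 (n = 2). The 95% interval of the fold was 0.871 to 1.15 (edgeR adjusted p = 1.0). Ldb1, the LIM domain binding protein that links enhancers to promoters, lies on chromosome 19 from 46031570 to 46045214. It was at 329.6, 373 and 363 CPM in controls and 342 and 359 CPM in KO, inside the control range (log2 fold change -0.02 ± 0.08 SE, edgeR adjusted p = 0.92). Exons of Ldb1 overlap those of Pprc1 on the opposite strand by 177 bp, and the sources used here do not say whether counting used strand.

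Lmo2 (ENSMUSG00000032698, plus strand of chromosome 2 from 103957986 to 103981878) encodes the LIM-only bridge between TAL1 and GATA1, and its values came nearest to a difference. The controls held 428, 418 and 378 CPM, and the KO libraries 358 and 330.4 CPM. Both KO libraries lay below every control, with 20.3 CPM between the lowest control and the highest KO library. Control libraries averaged 408 CPM ± 26.3 (SD, n = 3) and KO libraries 344 CPM ± 19.6 (SD, n = 2). This was a log2 difference of -0.25 ± 0.08 (SE) that did not pass (edgeR adjusted p = 0.12, DESeq2 adjusted p = 0.071). The 95% interval of the fold was 0.738 to 0.964, so a decrease to below 0.738 of control lies outside it. The adjusted p was 0.032 without KO replicate 1, a fit in which the lone KO library is assumed to vary like the controls, and 0.18 to 0.33 without any of the 4 other libraries. Such an arrangement, with both KO libraries below all controls, was found in 2 of the 10 genes (Lmo2 and Cbfa2t3) and in 19.3% of all genes tested, and with both above all controls in 0 of the 10 and in 21.9% of all genes tested.

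Among the repressor partners, Gfi1b on chromosome 2 (28609450 to 28621982) encodes a zinc finger repressor needed for erythroid and megakaryocyte cells. It was at 208, 246 and 218 CPM in controls and at 265 and 208 CPM in KO. KO replicate 1 was above and KO replicate 2 just under every control, and the log2 fold change of 0.08 ± 0.11 (SE, edgeR adjusted p = 0.73) became 0.24 without KO replicate 2 and -0.13 without KO replicate 1. Cbfa2t3, or ETO2, on chromosome 8 (122625141 to 122699109), restrains the TAL1 complex before terminal differentiation. It was at 55.2, 58.8 and 55.3 CPM in controls and 50.3 and 50.7 CPM in KO, so both KO libraries lay below every control by at least 4.46 CPM. The log2 fold change was -0.16 ± 0.07 (SE, edgeR adjusted p = 0.24), and over the alternatives it ranged from -0.17 to -0.13 with adjusted p from 0.16 to 0.47.

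Nfe2, the p45 subunit of NF-E2 on chromosome 15 (103248212 to 103258403), had the closest agreement among controls, at 571, 574 and 587 CPM. The KO libraries lay on both sides, at 594 and 511 CPM, with a log2 fold change of -0.06 ± 0.09 (SE, edgeR adjusted p = 0.70). Without KO replicate 1 it was -0.20 (adjusted p = 0.072) and without KO replicate 2 it was 0.04, so its sign rested on which KO library was used.

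Spi1 (ENSMUSG00000002111, plus strand of chromosome 2 from 91082390 to 91115756) encodes PU.1, the myeloid factor that opposes GATA1. It was at 17.8, 15.1 and 18.6 CPM in controls and 18.6 and 17.5 CPM in KO, from 198 to 277 counts, with control replicate 2 the lowest. The log2 fold change was 0.07 ± 0.12 (SE, edgeR adjusted p = 0.77). The Gata1 to Spi1 ratio was 26.1, 34.8 and 25.2 in controls and 25.4 and 26.7 in KO, with both KO libraries inside the control range (log2 difference -0.13, exact two-sided permutation p = 1.0, adjusted 1.0). The Gata2 to Spi1 ratio was 0.812, 0.657 and 0.813 in controls and 0.752 and 1.13 in KO, so KO replicate 2 alone lay above the controls (log2 difference 0.28, exact two-sided permutation p = 0.6, adjusted 0.9). Of 15 genes that PU.1 is known to activate, all tested, 0 passed in edgeR (4 at an unadjusted p below 0.05), with a median log2 fold change of -0.17. That median was 0.02 when KO replicate 2 was left out, -0.05 when control replicate 3 was, and -0.27 when KO replicate 1 was, a fit that called 1 higher and 3 lower. Lyz2, the myeloid lysozyme, had the highest CPM of them, at 96.6, 84.8 and 112 CPM in controls and 88.9 and 61.0 CPM in KO. Laptm5, a lysosomal membrane protein of blood cells, was at 65.4, 52.4 and 72.0 CPM and at 66.0 and 53.5 CPM.

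Marker RNA of cells that express Spi1 was in the sort. Of 15 macrophage markers 14 were tested, 5 fell and 0 rose, with a median of -0.57 and a sum of 253 to 291 CPM in controls against 222 and 180.3 CPM in KO. Cd5l, a protein secreted by macrophages, Marco, a scavenger receptor, and Adgre1, the F4/80 antigen, had the smallest p, with log2 fold changes of -0.78, -0.79 and -0.68 (edgeR adjusted p of 0.012, 0.016 and 0.016). With 1 library left out, the number that fell was 2, 0 and 1 for control replicates 1, 2 and 3, 8 for KO replicate 1 and 3 for KO replicate 2. Of 10 granulocyte markers 0 passed in edgeR (3 at an unadjusted p below 0.05), with sums of 552 to 799 CPM in controls and 759 and 632 CPM in KO. Spi1 lay inside the control range in KO replicate 2 and level with the highest control in KO replicate 1, while the macrophage sum lay below every control, and the part of these cells in the Spi1 values was not tested.

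The other proteins of the complexes were taken as lists, which were chosen with earlier results of these data known. Of 11 TAL1 and LDB1 partners, 1 rose, 0 fell and 10 did not pass, with a median log2 fold change of 0.06. Leaving out KO replicate 1 gave 1 higher and 1 lower. The one that rose was Ssbp4, from the family of single-stranded DNA-binding proteins that stabilise LDB1, which went from 27.2, 30.3 and 31.0 CPM in controls to 45.2 and 51.5 CPM in KO. Its log2 fold change was 0.71 ± 0.09 (SE, edgeR adjusted p = 0.0034), it was above every control in 2 of 2 KO libraries, and it passed in all 12 alternatives. Its relatives did not pass: Ssbp3 was at 222, 268 and 270.1 CPM in controls and 222 and 183 CPM in KO (log2 fold change -0.32 ± 0.11 SE, edgeR adjusted p = 0.12), and Ssbp2 had a log2 fold change of 0.02 ± 0.10 (SE). Tcf3, the E protein partner of TAL1, was at 0.09 ± 0.07 (SE) and Klf1, the erythroid Krüppel-like factor, at -0.21 ± 0.10 (SE) on the log2 scale. These relatives, Tcf3 and Klf1 were chosen after their values were seen.

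Of 16 corepressor genes 0 passed in edgeR and 0 had an unadjusted p below 0.05, in DESeq2 and limma-voom 0 were called, and the median was -0.04; 1 was called higher when KO replicate 1 was left out. Chd4, the NuRD remodeller, was at 623 to 644 CPM in controls and 583 and 626 CPM in KO, and Rbbp4, a histone-binding subunit, at 589.9 to 601 CPM and at 555 and 554 CPM. Of 6 partners and relatives of NF-E2, 1 rose and 0 fell. This was Maff, a small MAF protein gene, with 4 to 5 counts in controls and 19 and 12 counts in KO, or 0.28 to 0.32 and 1.46 and 0.78 CPM (log2 fold change 1.83 ± 0.38 SE, edgeR adjusted p = 0.023). Its call was lost without a filter (adjusted p = 0.083), without any 1 control (up to 0.093) and without KO replicate 1 (0.083). Mafg and Mafk, also small MAF genes, had log2 fold changes of 0.22 ± 0.08 and -0.02 ± 0.07 (SE, edgeR adjusted p of 0.12 and 0.87) and were named after their values were seen. DESeq2, which gave Maff no adjusted p, called 1 of the 6 lower (Nfe2l2).

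Of 16 other blood and GATA factors 14 were tested, 0 rose and 1 fell, with a median of -0.10. DESeq2 called 2 lower, and leaving out KO replicate 1 gave 1 higher and 5 lower. Ikzf1, the Ikaros factor, went from 416, 439 and 438 CPM to 358 and 305 CPM, a log2 fold change of -0.38 ± 0.09 (SE, edgeR adjusted p = 0.037). Its call was lost without any 1 control (adjusted p up to 0.14), without KO replicate 2 (0.071) and without a filter (0.080). The related GATA genes Gata3 and Gata6 did not reach the filter, at no more than 0.21 and 0.39 CPM in any library, and were named for that.

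Known targets of GATA1 were compared beside its own RNA. Of 23 genes it is known to activate, 0 rose and 1 fell, while 22 had a log2 fold change below 0, beside 6171 of 13000 genes tested. The median was -0.12, against 0.01 over all genes, and it went to -0.08 when KO replicate 2 was left out and to -0.25 when KO replicate 1 was, a fit in which 9 were called lower. With DESeq2 3 were called lower. The member that fell was Xpo7, an exportin of late erythroblasts, from 2051, 2117 and 2206 CPM to 1711 and 1342 CPM (log2 fold change -0.48 ± 0.12 SE, edgeR adjusted p = 0.047). Its call was lost without any 1 control (adjusted p up to 0.17), without KO replicate 2 (0.051), without a filter (0.091) and with RLE scaling (0.051). The summed CPM of the 23 genes was 75061 to 87268 in controls and 79842 and 65159.9 in KO, so KO replicate 1 lay inside the control range and KO replicate 2 below it. Of 12 erythroid markers 0 passed in edgeR (3 at an unadjusted p below 0.05), with a median of -0.11, and DESeq2 called 2 lower. Leaving out KO replicate 1 gave a median of -0.30 with 4 called lower, leaving out KO replicate 2 gave -0.06, and leaving out control replicate 3 gave -0.22. Over the 8 markers that remained without globin and mitochondrial genes it was -0.23. Of 12 genes that GATA1 is known to repress, among them Gata2 and Spi1, 0 passed in edgeR (2 at an unadjusted p below 0.05) and DESeq2 called 1 lower. Their median was 0.07; it was -0.01 when control replicate 2 was left out, and leaving out KO replicate 1 gave 2 higher and 1 lower. Lyl1, a relative of Tal1, was at 170.0 to 203 CPM in controls and 203 and 188 CPM in KO, and Myc at 128 to 130.1 CPM and at 123 and 159.5 CPM.

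**Figure D5:**
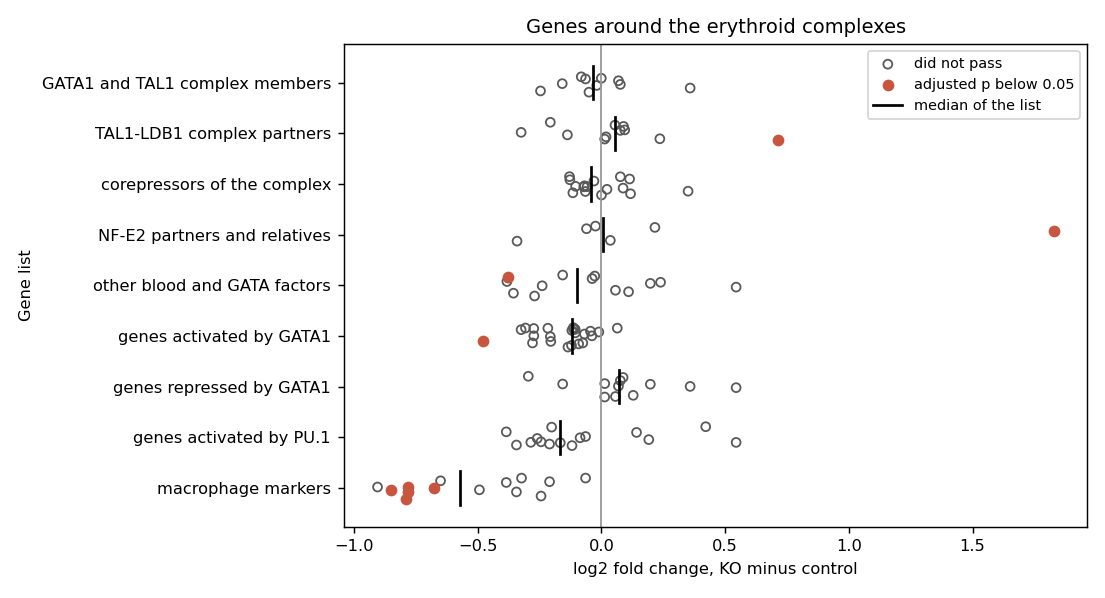
Log2 fold change of KO against control for each tested gene of 9 lists (points, spread vertically for legibility), filled where the edgeR adjusted p was below 0.05, with a bar at each list's median. The members' points lie between -0.25 and 0.36 with 0 filled, while 5 macrophage markers are filled below 0, at a list median of -0.57.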

How the data were processed

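RNA-seq was compared between 3 control and 2 KO libraries, grouped by title and genotype. Per the submitters' processing notes the authors used cutadapt, STAR, Bowtie and HTSeq with build mm10; the sources used here give no versions or settings, and say nothing of strand or of multi-mapping reads. The table deposited by the authors holds raw counts per Ensembl gene, not normalised by the authors. Of its 39179 identifiers 37607 matched a symbol in GENCODE release M21 (GRCm38), which also gave coordinates and exon lengths.

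Counts were tested with edgeR 4.0.16 in R 4.3.3 (glmQLFit and glmQLFTest, TMM scaling, filterByExpr, group as the only term, Benjamini-Hochberg over 13000 genes, threshold 0.05). Each standard error is the log2 fold change divided by the root of F. The fit was tested on simulated counts, in 5 simulations with 200 changed genes each. Of genes changed by a log2 of 0.5, 50% were called with the right sign, and of those changed by 1, 81.2%. Of all calls 6.9% were false. The 200 changed genes were fewer than the 907 called in the data, and no change below a log2 of 0.5 was simulated. These shares therefore do not say how often changes of the members' size, from -0.25 to 0.36, would be called. Ratios were tested by exact permutation in scipy 1.17.1.

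Alternatives were DESeq2 1.42.0, limma-voom (limma 3.58.1), RLE scaling, other filters, globin and mitochondrial genes left out, the replicate number as a block and each library left out. The members and the 15 other lists were chosen with earlier results of these data known. Named were the members, Csnk2b, up to 3 genes past the threshold of each list or else 2 of the most abundant, and the genes with patterns most like Gata1 and Gata2; of these, several of the most abundant markers are given only in their lists' counts, and a gene that the rule names is not reported here. Of 7 endothelial and 8 hepatocyte markers tested 0 passed in edgeR (2 and 0 at an unadjusted p below 0.05), with sums of 51.2 to 73.9 and 218 to 345 CPM.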

Additional observations from a re-analysis of the deposited data

How the results depend on the processing

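For the 10 genes together the count of calls stayed at 0 in both directions under 11 of 12 alternatives; without KO replicate 1 it was 1 lower (Lmo2), so over the fits that left out a library it ranged from 0 to 1. Signs near 0 changed: over the fits that left out a library, log2 fold changes ranged from -0.082 to 0.0086 for Gata1, -0.081 to 0.052 for Tal1, -0.070 to 0.017 for Ldb1, -0.014 to 0.13 for Spi1, -0.20 to 0.036 for Nfe2 and -0.13 to 0.24 for Gfi1b. The log2 difference in the Gata1 to Spi1 ratio was 0.022 without control replicate 2, and over libraries left out it ranged from -0.21 to 0.022. That of Gata2 to Spi1 was -0.0095 without KO replicate 2 and ranged from -0.0095 to 0.58. That of Gata1 to Gata2 kept its sign, from -0.67 to -0.15. A prior count of 0.5 changed no sign. Over all genes 669 were higher and 238 lower; without a filter 235 and 53. Leaving out a library gave 210 to 1709 higher and 31 to 1247 lower, the largest without KO replicate 1. The groups share replicate numbers, and the deviations of same-numbered libraries from their group mean correlated at 0.0016 and 0.042, with only 2 pairs. The deviations of the 2 KO libraries mirror each other, so this check cannot tell whether same-numbered libraries were paired. With the replicate number as a block, 702 genes were higher and 171 lower, 0 of the members were called, Tal1 was at 0.0025, and Ikzf1 and Xpo7 no longer passed (adjusted p = 0.13 and 0.23). In limma-voom and DESeq2, the PU.1 target, mast cell, granulocyte, progenitor, endothelial and hepatocyte lists also had 0 calls. RLE scaling moved the median of all genes by -0.01.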

Other observations

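The KO libraries differed from each other at several genes around the complexes, named here after their values were seen. Sox6, a repressor of embryonic globin, was at 369 and 283 CPM in KO replicates 1 and 2, against 410.5 to 433 CPM in controls. Klf3, a repressor of the Krüppel-like family, was at 260.1 and 178 CPM, against 274 to 286 CPM. Mbd3, a NuRD subunit, was at 98.0 CPM in KO replicate 1, inside the control range of 91.4 to 109 CPM, and at 153 CPM in KO replicate 2. In edgeR these genes did not pass, with adjusted p of 0.073, 0.15 and 0.23.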
